A study of Canis lupus familiaris with 6 samples.

Results

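The miR-29 family comprises 3 of the 289 canine miRNAs on the arrays of this series, cfa-miR-29a, cfa-miR-29b and cfa-miR-29c (miR-29a, miR-29b and miR-29c below). Its members were taken by the gene name printed beside each probe, which gave 6 of 656 probes and 120 of 11560 spots on every array. The samples were Sca1+ and Sca1- cells of the canine mammary cancer lines CMT-U27, CMT-U309 and P114, separated by fluorescence-activated sorting on the surface antigen Sca1. The sort gave 3 Sca1+ and 3 Sca1- samples, 1 of each per line, and the labels present Sca1+ cells as cancer stem cells. All lines were grown in serum-containing medium. The P114 cells of both fractions are described in one label field as cultured together with macrophages, and the CMT-U27 and CMT-U309 cells as cultured alone, so line and culture cannot be told apart for P114. Nothing in the labels says how separate the cultures were, and the p-values given below measure only the spread between these samples, whose number limits the precision.

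The arrays are named here by brightness. B1, B2 and B3 detected over 50 miRNAs each, with 111, 91 and 89, and D1, D2 and D3 detected 39, 22 and 9. Following the scanner files as attached to each sample, D1 (CMT-U27), B1 (CMT-U309) and D3 (P114) held Sca1+ RNA, and D2 (CMT-U27), B2 (CMT-U309) and B3 (P114) held Sca1- RNA. The deposited value table repeats the same signals under other samples for 4 of the 6 arrays. In it, the Sca1+ samples were D1 (CMT-U27), D2 (CMT-U309) and B1 (P114), and the Sca1- samples were B2 (CMT-U27), D3 (CMT-U309) and B3 (P114). Which assignment is right was not settled by the sources used here. D1 and B1 were Sca1+ and B2 and B3 were Sca1- under both assignments, and results that need no more than these 4 arrays do not depend on that choice for the fraction.

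The miR-29 miRNAs are small RNAs that share a seed, the stretch near the 5′ end through which a miRNA pairs with its target mRNAs. In human and mouse cells they are known to repress genes of the extracellular matrix, among them collagens, fibrillin and elastin, and the DNA methyltransferase genes DNMT3A and DNMT3B. In fibrosis they are known to be lowered by TGF-beta signalling, and in human breast cancer cells the luminal transcription factor GATA3 is known to raise miR-29b.

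The stretches of the miRNAs that the array probes bind are shown because all values below rest on telling 3 near-identical sequences apart. Each is the reverse complement of the member's longer probe, written 5′ to 3′ as DNA. Capitals mark the part of the seed that the probe covers, the seed being bases 2 to 8 when the miR-29c stretch is numbered from 1 at its 5′ end:
miR-29a: GCACCAtctgaaatcggtta
miR-29b: GCACCAtttgaaatcagtgtt
miR-29c: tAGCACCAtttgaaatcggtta
The probes of miR-29a and miR-29b start at base 3 of that numbering, so the seed bases they share with miR-29c are GCACCA. That run of 6 bases occurred in the longest probe target of 3 of the 289 miRNAs (1.04%), which were these 3 members.

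The same stretches are shown again with capitals at the bases by which miR-29a and miR-29b differ from miR-29c:
miR-29a: gcaccatCtgaaatcggtta
miR-29b: gcaccatttgaaatcAgtGTT
miR-29a differed from miR-29c by a single substitution, T10C, written with the miR-29c base first and counted from 1 at the 5′ end of the miR-29c stretch. miR-29b differed by G18A, T21G and A22T and by 1 base past the end of miR-29c. The end of miR-29b reads AGTGTT, the DNA form of the hexamer known in human cells to direct miR-29b to the nucleus. Those letters stood at the 3′ end of 1 of the 289 longest probe targets (0.346%), that of miR-29b. Signal passing between probes of near-identical members was not measured, and the value of miR-29a against miR-29c rests on 1 base inside the probe.

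The files place the longer probe of miR-29a at chr14:9137235-9137253 of the dog build canFam2, an interval of 19 bases for a probe of 20. miR-29b was placed at chr14:9136851-9136871 and at chr7:9606896-9606916, and miR-29c at chr7:9543019-9543040 and chr7:9606348-9606369. miR-29a and a copy of miR-29b are thus separated by 363 bases on chromosome 14, and copies of miR-29c and miR-29b by 526 bases on chromosome 7. The second miR-29c interval lies 63307 bases from the first. The files list the chromosome 14 intervals in ascending order and those of chromosome 7 in descending order. RefSeq's table for a later dog assembly (UU_Cfam_GSD_1.0), used for names and neighbours only, lists MIR29A and MIR29B-1 as neighbours that both overlap the long noncoding RNA LOC102155521. It lists MIR29B-2 and MIR29C-2 as neighbours, and a further MIR29C-1, with no overlapping gene. Since miR-29b has a copy in each cluster, its signal joins the product of both.

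All 3 members were detected on D1 and B1 (Sca1+) and on B2 and B3 (Sca1-). On D3 no member was detected under either assignment, and on D2 miR-29a alone was. The total gene signal of miR-29a, the scanner software's sum for 1 miRNA in intensity units not scaled between arrays, was 126 on D1 and 865 on B1 (Sca1+), against 11.2 on D2, 1313 on B2 and 1069 on B3 (Sca1-). miR-29b had 200.0 on D1 and 1078 on B1 (Sca1+), against 1939 on B2 and 1735 on B3 (Sca1-). miR-29c had 27.8 on D1 and 279.9 on B1 (Sca1+), against 244 on B2 and 192 on B3 (Sca1-). On the bright arrays miR-29a and miR-29b were thus lowest on the Sca1+ array, while miR-29c was highest there; fewer cells and less RNA per cell cannot be told apart in such bulk samples. Every member was dimmer on D1 than on each bright array, as was the array as a whole. On these 4 arrays unscaled miR-29a and miR-29b were lower on D1 and B1 than on B2 and B3, and miR-29c overlapped between fractions. How many other miRNAs did likewise was not counted. The summed signal of all miRNAs was 3228 on D1, against 70794 on B2 and 70162 on B3. This separation of unscaled signals is therefore not read as a result about the members. As a share of the signal, given below, neither miR-29a nor miR-29b kept this separation. With D2 and D3 as in the scanner files, the Sca1- range took in the low or undetected values of D2.

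**Figure D1:**
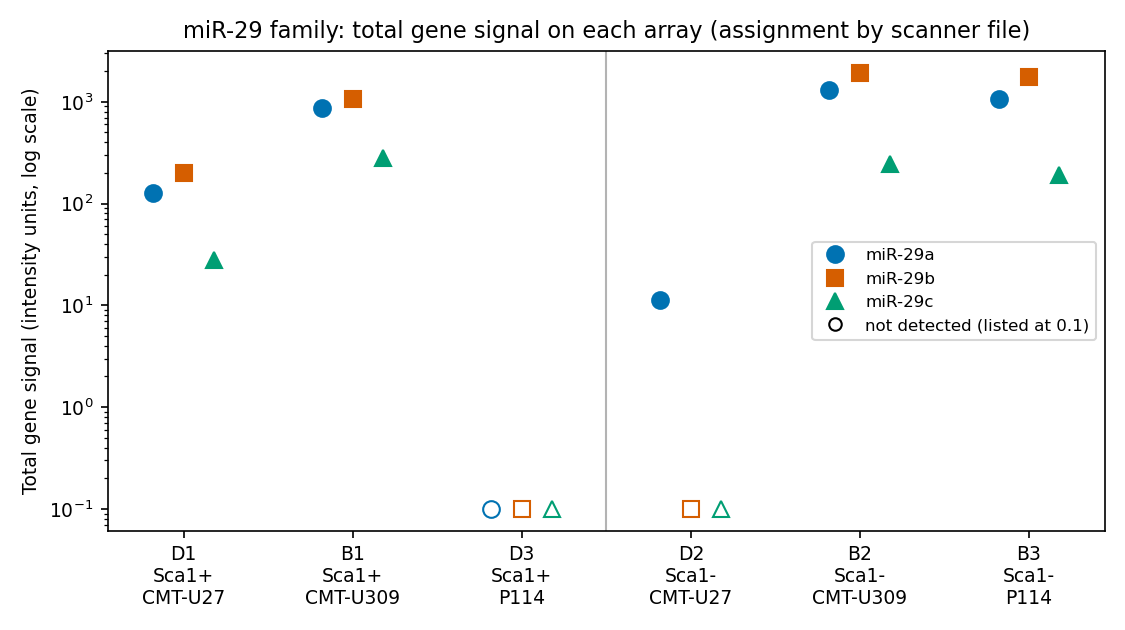
Total gene signal (intensity units, log axis) of miR-29a, miR-29b and miR-29c on each array, Sca1+ arrays left of Sca1- arrays in the assignment of the scanner files; arrays on which a member was not detected are marked as such. Among the bright arrays B1 has the lowest miR-29a and miR-29b and the highest miR-29c. Each member is lower on D1 than the same member on every bright array.

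The arrays also differed as a whole. The summed signal of all miRNAs was 3228 on D1, 69282 on B1 and 319.5 on D3, against 1277 on D2, 70794 on B2 and 70162 on B3. Controls were alike on all arrays, with total gene signals of 17663 to 20325 intensity units for one control and 17499 to 19618 for another. No member spot was saturated. Set against the summed signal, the family held 11.0% on D1 and 3.21% on B1 (Sca1+), against 4.94% on B2 and 4.27% on B3 (Sca1-). The Sca1+ arrays thus held both the highest and the lowest share among these 4. On D2 the family held 0.875%, all of it miR-29a.

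Dim arrays detect fewer miRNAs, which raises the share of those still seen, so shares were also taken over the 37 miRNAs detected on all 4 of these arrays. The family then held 11.8% on D1 and 3.99% on B1, against 5.38% on B2 and 4.64% on B3, which kept D1 highest and B1 lowest. miR-29a held 4.19% on D1 and 1.55% on B1, against 2.02% on B2 and 1.66% on B3. miR-29b held 6.65% on D1 and 1.93% on B1, against 2.99% on B2 and 2.69% on B3. For both of these members the Sca1+ arrays lay on either side of the Sca1- arrays. miR-29c held 0.926% on D1 and 0.502% on B1, against 0.376% on B2 and 0.298% on B3, and was higher on both Sca1+ arrays. That pattern was common, since 17 of the 37 miRNAs (45.9%) had a larger share on both Sca1+ arrays than on both Sca1- arrays. miR-21, an abundant miRNA of many tumours, held 21.5% of the same signal on D1 and 32.6% on B1, against 49.5% on B2 and 49.5% on B3, and its part in these shares was not tested.

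The spots of a probe were close together where the array was bright. Each probe is printed 20 times, and on B1, B2 and B3 all 20 spots of every member probe were well above background, with a coefficient of variation between spots of 2.41% to 10.6% (median 5.90% over 18 probe and array pairs). The longer miR-29a probe averaged 417 ± 24.7 on B1 (Sca1+), against 630 ± 46.2 on B2 and 510 ± 31.2 on B3 (Sca1-; SD over used spots of 1 array). The longer miR-29b probe averaged 621 ± 43.6 on B1, against 1129 ± 81.3 on B2 and 1016 ± 67.2 on B3. The longer miR-29c probe averaged 113 ± 5.73 on B1, against 104 ± 3.52 on B2 and 80.1 ± 4.58 on B3. These SDs describe spots of a single hybridisation and are not the error between samples.

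On D1 all 20 spots of each miR-29a and miR-29b probe were still well above background, and the longer probes averaged 61.3 ± 5.25 and 118 ± 6.26. Of the miR-29c probes, 9 of 20 spots passed for the longer and 4 of 20 for the shorter, with means of 12.1 ± 2.27 and 8.92 ± 3.40. The value of miR-29c on D1 is therefore the least certain of those the ratios below rest on, with a coefficient of variation of 18.9% for the longer probe and 38.1% for the shorter. On D2 and D3 no member probe had more than 1 of 20 spots well above background.

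**Figure D2:**
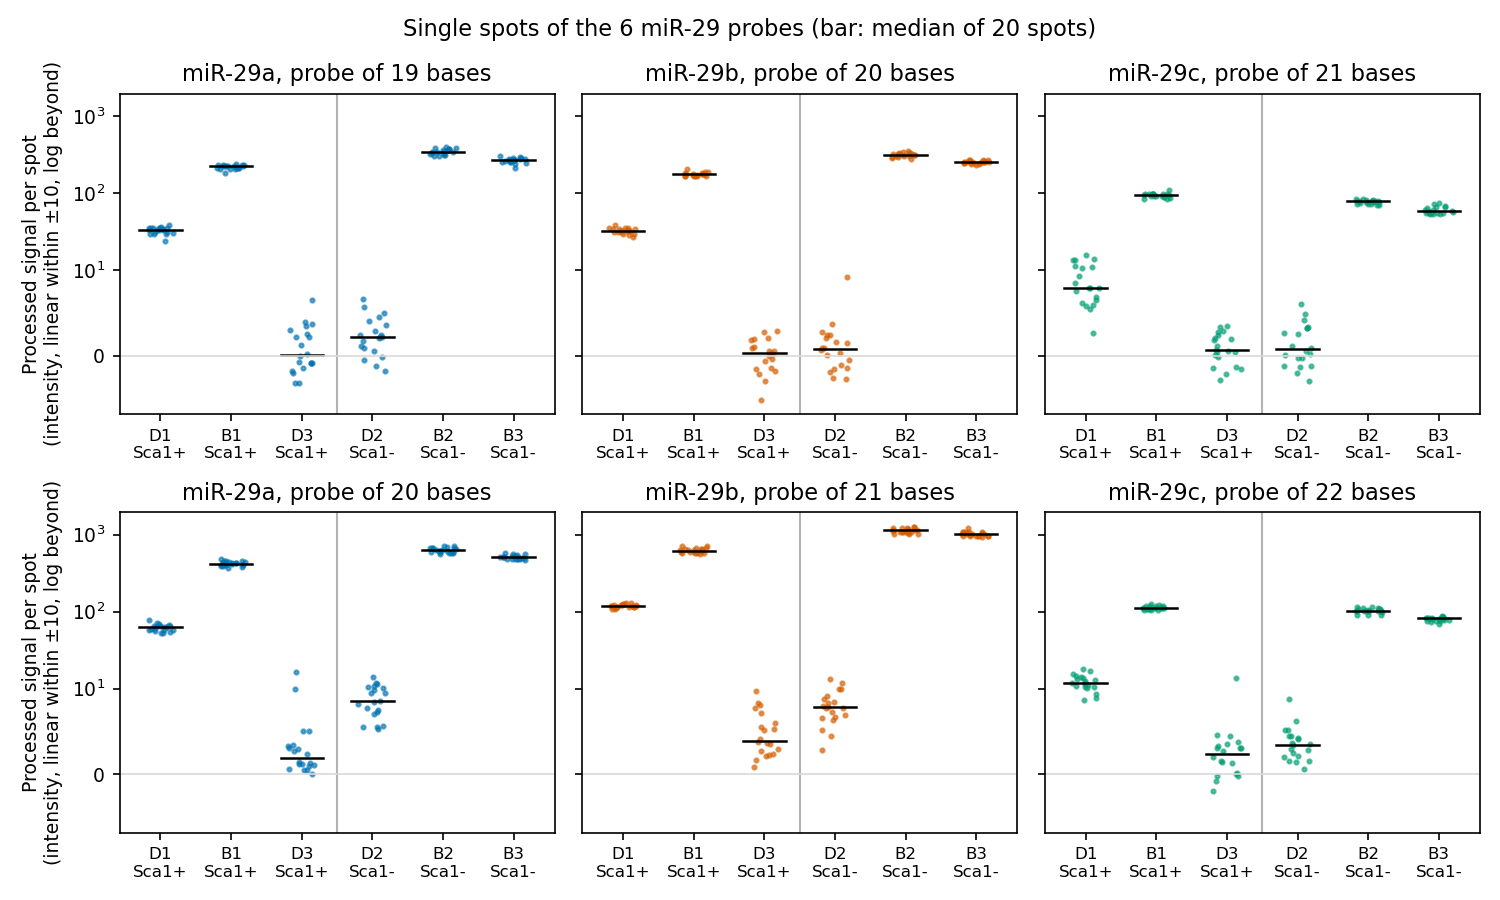
Processed intensity (log axis with a linear part at low intensity) of single spots of both probes of each member on each array. Sca1+ arrays stand left of Sca1- arrays. Spots on the bright arrays form tight groups, as with 417 ± 24.7 on B1 against 630 ± 46.2 on B2 for the longer miR-29a probe. The miR-29c spots on D1 are low and wide.

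The difference between fractions within lines, the comparison the study's pairs were made for, passed the test for no member under either assignment. Values for it were log2 intensities scaled to the 75th percentile of each array over the probes measured on all 6 arrays. By scanner file, the difference of Sca1+ minus Sca1- for miR-29a was 1.03 in CMT-U27 (D1 and D2), -1.29 in CMT-U309 (B1 and B2) and -2.90 in P114 (D3 and B3). The matching differences of miR-29b were 2.14, -1.56 and -2.25, and those of miR-29c were 0.17, -0.59 and -2.16. CMT-U27 had the opposite sign to the other lines for all 3 members, and how many other tested miRNAs did likewise was not counted. miR-29b and miR-29c were not detected on D2, nor any member on D3, so the sizes that use those values rest on background.

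In limma's fit over all 6 arrays with line as a term, the mean difference of Sca1+ minus Sca1- was -1.06 for miR-29a (SE 1.78, adjusted p = 0.995). It was -0.56 for miR-29b (SE 1.83) and -0.86 for miR-29c (SE 1.70), with the same adjusted p. Of the 80 miRNAs tested, 0 were called at an adjusted p under 0.05 (0%), and 0 had an unadjusted p under 0.05. The median difference of all 80 was -0.81, and ranked from the lowest difference the members stood at 36 (miR-29a), 39 (miR-29c) and 48 (miR-29b). The family thus lay in the middle of the 80 miRNAs tested.

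With samples as in the value table, CMT-U27 paired D1 with B2, and the differences there were -0.66 for miR-29a, -0.54 for miR-29b and -0.43 for miR-29c. P114 then paired B1 with B3 and gave -0.82 for miR-29a, -1.24 for miR-29b and -0.04 for miR-29c. CMT-U309 paired the dim arrays D2 and D3, where miR-29b and miR-29c were detected on neither, and miR-29a was detected on D2 only. The fitted difference of limma was 0.070 for miR-29a (SE 0.97, adjusted p = 0.958), -0.63 for miR-29b (SE 0.84, adjusted p = 0.826) and 0.54 for miR-29c (SE 0.96, adjusted p = 0.826). Here too 0 of 80 miRNAs were called (0%), with 3 at an unadjusted p under 0.05. The positive values of miR-29a and miR-29c came with the CMT-U309 pair, at 1.69 for miR-29a and 2.11 for miR-29c, while all 3 members were below 0 in CMT-U27 and P114. With normexp background as well, miR-29a was at -0.24 under the same assignment.

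Lines were compared in the same fit with limma's moderated F test. By scanner file 0 of 80 miRNAs differed among lines at an adjusted p under 0.05 (0%), 4 at an unadjusted one, and the members had adjusted p-values of 0.901 (miR-29a), 0.927 (miR-29b) and 0.901 (miR-29c). With samples as in the value table, 14 of 80 were called (17.5%), none of them a member, with adjusted p-values of 0.388 for miR-29a, 0.285 for miR-29b and 0.598 for miR-29c. In that assignment CMT-U309 holds D2 and D3, the arrays with the fewest miRNAs detected, and the part of array brightness in these calls was not tested.

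On the bright arrays, miR-29a and miR-29b were lower on the Sca1+ array B1 than on both Sca1- arrays, and miR-29c was level, but no difference passed the test. Scaled over the probes measured on these 3 arrays, the log2 level of miR-29a was 0.50 on B1, against 1.23 on B2 and 1.29 on B3. That of miR-29b was 1.07 on B1, against 2.07 on B2 and 2.29 on B3. For both, the gap between B1 and the nearer Sca1- array exceeded the gap between B2 and B3. The level of miR-29c was -1.39 on B1, against -1.36 on B2 and -1.38 on B3.

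The bright-array fit of limma put miR-29a at -0.76 (SE 0.28, adjusted p = 0.202), which is 1.70-fold lower on the lone Sca1+ array B1. It put miR-29b at -1.11 (SE 0.29, adjusted p = 0.158), 2.15-fold lower, and miR-29c at -0.02 (SE 0.28, adjusted p = 0.954). Of the 90 miRNAs tested 4 were called (4.44%), all lower on B1, namely miR-199, miR-99b, miR-140 and miR-34a, which are named here after their values were seen. The median difference of all 90 was 0.18. Ranked from the lowest difference, miR-29b stood at 12, miR-29a at 15 and miR-29c at 40. With 1 array on the Sca1+ side, the spread comes from B2 and B3 alone, which leaves 1 residual degree of freedom. After background correction by normexp the calls changed, with adjusted p-values of 0.0160 for miR-29a and 0.000558 for miR-29b at differences of -0.75 and -1.20, but 54 miRNAs were then called in all, 43 higher and 11 lower on B1. The median of all miRNAs also moved with the scaling. It was -0.28 when scaled over all probes, -0.04 after quantile scaling and 0.50 with no scaling, and miR-29c stood at -0.48, -0.41 and 0.30 under these, below the median each time. Adding D1, the other array labelled Sca1+ under both assignments, moved the differences to 0.051 for miR-29a (SE 0.63), -0.10 for miR-29b (SE 0.76) and 0.55 for miR-29c (SE 0.49, adjusted p = 0.692), with 0 of 91 called (0%) and 7 at an unadjusted p under 0.05. Whether D1 shared the lower values of B1 turned with the scaling. Scaled over all 6 arrays, miR-29a was at -1.46 on D1 and -2.10 on B1, against -0.81 on B2 and -1.28 on B3. On that scale miR-29b was at -0.51 on D1 and -1.53 on B1, against 0.033 on B2 and -0.28 on B3. Both members were then lower on D1 and B1 than on B2 and B3. That scale rests on 10 probes of 6 miRNAs. How many other tested miRNAs were ordered in this way was not counted, so the order is not read as a trait of the members.

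**Figure D3:**
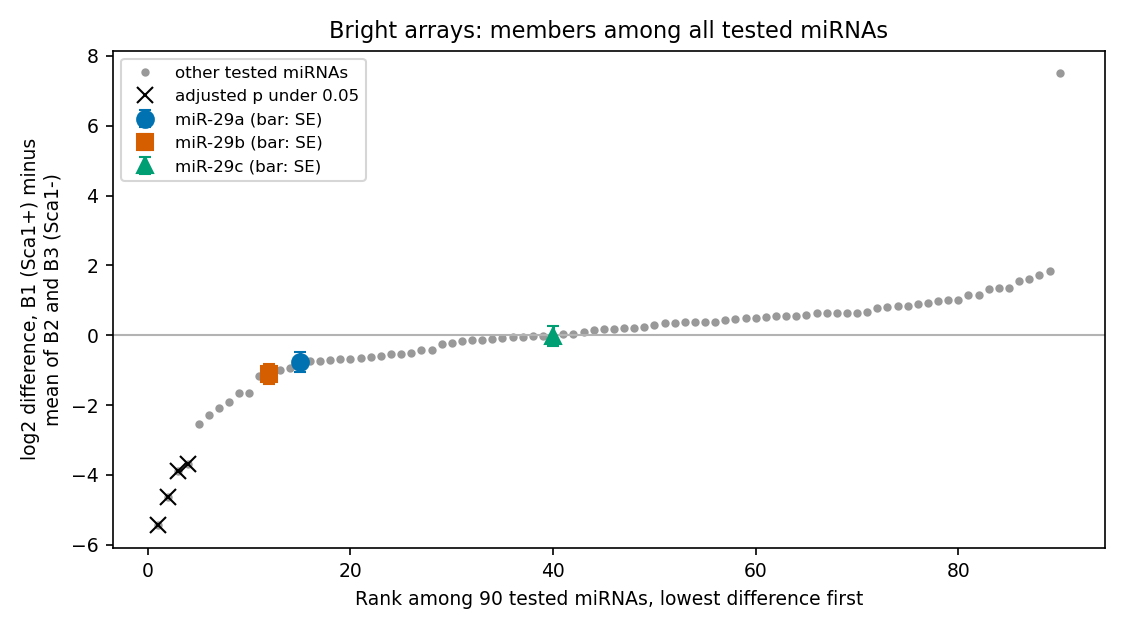
Log2 differences, Sca1+ (B1) minus Sca1- (B2 and B3), of the 90 miRNAs tested on the bright arrays, in rank order, with the members marked. miR-29b stands at rank 12, miR-29a at rank 15 and miR-29c at rank 40, against a median of 0.18.

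**Figure D4:**
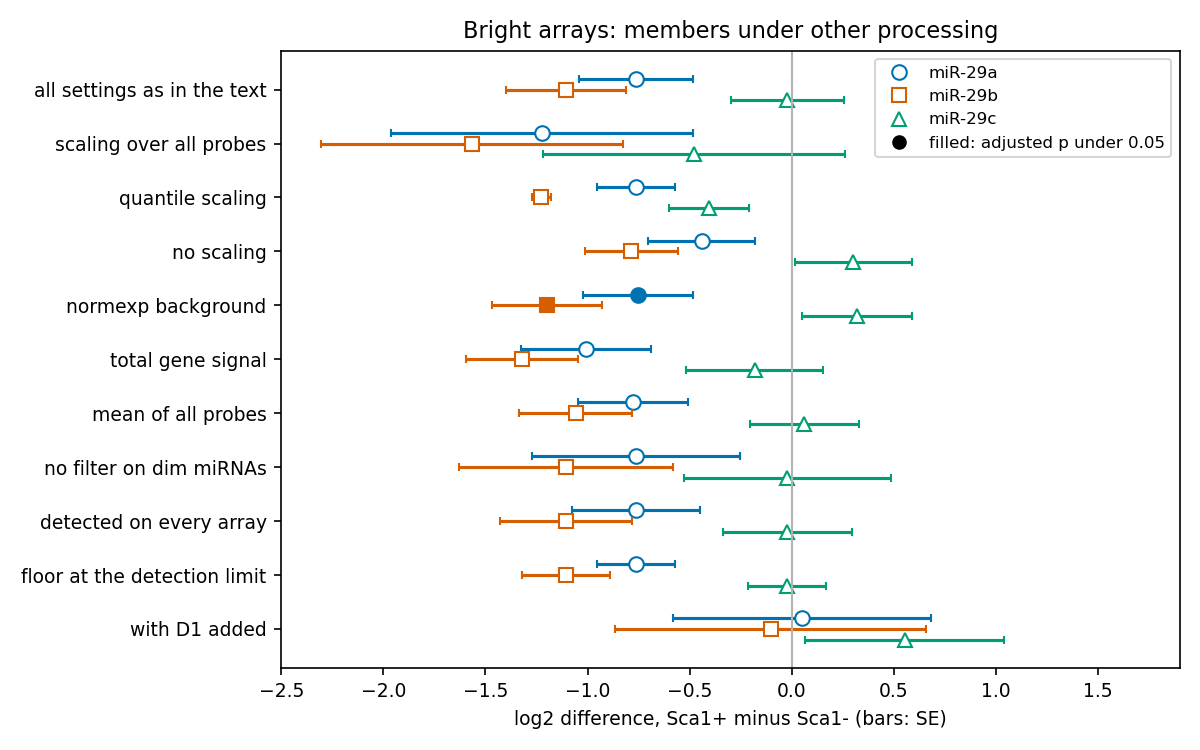
Log2 difference on the bright arrays, Sca1+ minus Sca1- (bars are standard errors), of each member under the processing of the text and 10 others; filled marks have an adjusted p under 0.05. miR-29a and miR-29b lie below 0 wherever B1 is the lone Sca1+ array and meet 0 with D1 added, and miR-29c lies on either side of 0.

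The signals of the members did not keep 1 ratio to each other across arrays, and this comparison needs no scaling between arrays. A ratio of the signals of 2 members on an array is no ratio of their amounts, because their probes differ. A change of it between arrays shows that the signals changed unequally. The part of background on D1 and of signal passing between probes in such a change was not tested. The log2 ratio of miR-29c over miR-29a was -2.18 on D1 and -1.63 on B1 (Sca1+), against -2.43 on B2 and -2.48 on B3 (Sca1-). It was higher on both Sca1+ arrays, by 0.55 on average (1.46-fold). B1 alone stood 0.82 above the mean of B2 and B3 (1.77-fold), and D1 alone 0.28 (1.21-fold). After normexp background correction the order turned, with B1 at 1.08 and D1 at 1.25 above that mean. That correction added an offset of 50 intensity units to every spot. On D1 the longer probes averaged 12.1 for miR-29c and 61.3 for miR-29a. A constant added to both signals draws their log2 ratio toward 0, most where signals are low. How much of the D1 value is due to the offset was not tested. An exact two-sided permutation test over these 4 arrays gave p = 0.333, the smallest that 2 arrays against 2 can give, so a difference between fractions could not be shown at any size.

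miR-29c over miR-29b behaved alike, at -2.84 on D1 and -1.95 on B1, against -2.99 on B2 and -3.18 on B3, a difference of 0.69 (1.61-fold) that was 1.14 without D1 and 0.24 without B1. miR-29b over miR-29a was 0.67 on D1 and 0.32 on B1, against 0.56 on B2 and 0.70 on B3. The fractions overlapped in that ratio, whose difference was -0.14. After normexp background correction they did not, at 0.56 on D1 and 0.40 on B1, against 0.78 on B2 and 0.91 on B3. The offset of 50 intensity units applies here too, beside longer-probe means on D1 of 61.3 for miR-29a and 118 for miR-29b. Its part in this separation was not tested. Each of the 4 ways to pair a miR-29c probe with a miR-29a probe gave a higher ratio on the Sca1+ arrays, by 0.74 to 0.93 on B1 and by 0.16 to 0.26 on D1. The size on D1 is small beside the spread of its miR-29c spots given above.

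A higher ratio to miR-29a on the Sca1+ arrays was not particular to miR-29c. Of the 36 other miRNAs detected on these 4 arrays, 8 had a ratio to miR-29a that was higher on both Sca1+ arrays than on both Sca1- arrays (22.2%), and miR-29c was 1 of these 8. On the bright arrays alone, 60 of 77 miRNAs stood higher against miR-29a on B1 than on either Sca1- array (77.9%), as follows from miR-29a being low on B1. Ranked by the change of share on D1 over the 37 common miRNAs, from the largest rise, miR-29c stood at 8, miR-29b at 11 and miR-29a at 13. Ranked likewise on B1, miR-29c stood at 18, miR-29a at 30 and miR-29b at 33. miR-29c therefore ranked above its relatives on both Sca1+ arrays, which restates the ratios above from the same signals. Its rank on D1 rests on probes with 9 and 4 of 20 spots well above background.

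**Figure D5:**
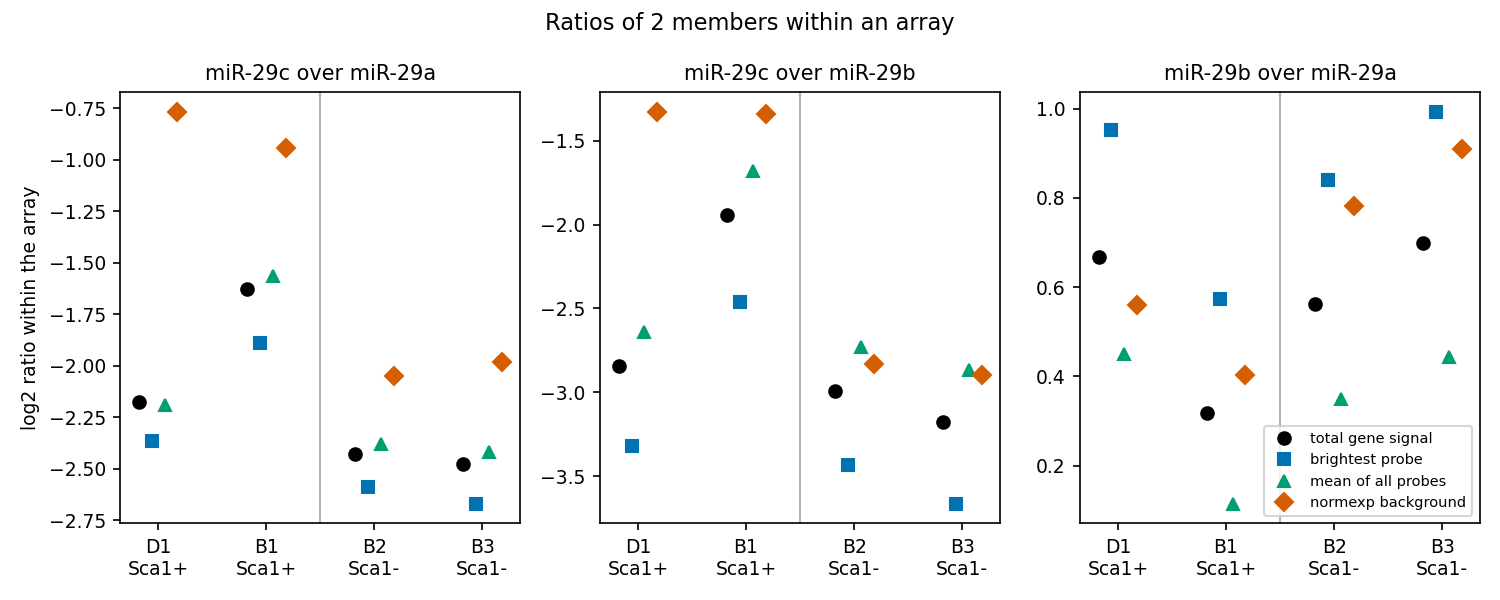
Log2 ratio of the signals of 2 members on the same array, Sca1+ arrays (D1 and B1) left of Sca1- arrays (B2 and B3). The ratios are miR-29c over miR-29a, miR-29c over miR-29b and miR-29b over miR-29a. Marks show total gene signal, brightest probe, mean of all probes and normexp background. Both ratios with miR-29c are higher on D1 and B1, by 0.55 and 0.69 on average in total gene signal. miR-29b over miR-29a overlaps between fractions except with normexp background, which adds an offset of 50 to every spot.

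The miRNAs whose pattern over the 3 bright arrays was most like each member were sought among 75 detected on all of them, by the root mean square difference of log2 levels centred on each miRNA's mean. For miR-29a these were miR-99a (0.111), miR-27a (0.114) and miR-27b (0.122), against a median of 0.507 over all candidates. For miR-29b they were miR-27b (0.0547), miR-21 (0.0595) and miR-27a (0.0872), against a median of 0.643. For miR-29c they were miR-26a (0.0274), miR-188 (0.0613) and miR-92a (0.0824), against a median of 0.303. miR-29a and miR-29b thus shared miR-27a and miR-27b, and miR-29c shared none with them. Within the family the difference was 0.174 between miR-29a and miR-29b, 0.351 between miR-29a and miR-29c and 0.521 between miR-29b and miR-29c. With 3 arrays, of which 2 are of a kind, this measure mostly reflects how far B1 lay from the rest.

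Other miRNAs known, mostly from human and mouse cells, to act on genes of the same kinds as the miR-29 targets were described beside the members. Of 10 miRNAs known to repress DNA methyltransferase or Polycomb methyltransferase genes, 7 were tested on the bright arrays and 0 were called, with 5 differences above 0 and 2 below. Their median was 0.55, against 0.18 for all miRNAs tested. miR-185, known in human cells to repress DNMT1, had a total gene signal of 138 on B1, against 23.3 on B2 and 21.9 on B3, a difference of 1.72 (adjusted p = 0.0828 by limma). miR-148b (0.65), miR-101 (0.63) and miR-148a (0.55) also lay above 0, miR-26a (0.03) and miR-152 (-0.02) near it, and miR-26b (-0.54) below. Within lines 6 of the 10 were tested and 0 called, with 1 above 0 and 5 below, and a median of -1.81 against -0.81 for all.

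Of 16 miRNAs known to act on matrix or fibrosis genes, 5 were tested on the bright arrays, with 3 differences above 0 and 2 below and a median of 0.03. miR-199, also one of the stromal markers below, was not detected on B1, while its total gene signal reached 245 on B2 and 193 on B3. It was the 1 miRNA of the list that was called (adjusted p = 0.0112 by limma), a call on 1 Sca1+ array that was not made with quantile scaling, with no filter or with D1 added. miR-21, known to promote fibrosis in heart and kidney, was at -1.15 (adjusted p = 0.158), close to miR-29b. miR-30c (0.48), miR-30b (0.20) and miR-30d (0.03), of a family that represses connective tissue growth factor in heart, did not pass. Within lines 4 of the 16 were tested and 0 called, with 1 above 0 and 3 below, and a median of -0.80.

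Markers of other cell types differed between the same arrays. Epithelial markers, led by the miR-200 family, numbered 7, and 5 were detected on B1 with a summed total gene signal of 5129, against 1 on B2 (28.9), 0 on B3 and 1 on D2 (23.9). On D1 and D3 0 of the 7 were detected, and miR-200a and miR-200b were detected on no array. Mesenchymal markers numbered 5, of which 1 was detected on B1 (19.9), against 2 on B2 (635) and 2 on B3 (623), and 0 on the dim arrays. Leukocyte and macrophage markers numbered 6, with 4 on B1 (1132), against 2 on B2 (219) and 2 on B3 (149), and 1, miR-223, on each dim array. Of the leukocyte markers miR-223 went the other way, at 69.5 on B1, against 80.9 on B2 and 70.9 on B3, and miR-142 and miR-150 were detected on no array. The lower miR-29a and miR-29b on B1 came with a higher summed signal of epithelial and of leukocyte markers and a lower one of mesenchymal markers, and the part of these cells or programmes in the members' values was not tested. Endothelial and muscle markers were not detected on any array, and the erythroid miR-451 was detected on D2 (39.4) and B2 (18.1) alone.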

How the data were processed

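Total RNA was hybridised to 6 one-colour Agilent miRNA arrays on 1 slide with 1 scan day. The deposited scanner files hold spot intensity from Agilent Feature Extraction, background-subtracted and detrended but not scaled between arrays, per the file headers (version 10.10.1.1; the submitters' processing notes give 10.7.3.1). The labels name the dye Cy5, while the files hold a green channel. The deposited value table holds total gene signal intensity, 0.1 where a miRNA was not detected. Its columns equalled the scanner file of the same sample for 2 samples and of another for 4 (relative tolerance 0.0001).

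Log2 spot intensities were scaled by each array's 75th percentile over probes with at least 50% of spots well above background on all arrays of a fit (10 probes of 6 miRNAs over 6 arrays, 122 of 70 over the bright arrays). A miRNA took its brightest probe. Normexp, where named, was run with an offset of 50 intensity units added to every spot. miRNAs detected on at least 3 arrays (2 of the bright ones) were tested with limma's lmFit and eBayes (version 3.58.1, R 4.3.3, with version 1.17.8 of data.table), with Benjamini-Hochberg adjustment and a threshold of 0.05, and the fits were tested on simulated data. Line was a block, since both fractions of a pair come from 1 line. Deviations of paired arrays from their fraction's mean correlated at -0.16 (CMT-U27), 0.58 (CMT-U309) and -0.54 (P114) by scanner file, and at 0.08, 0.66 and 0.62 under the value table's assignment, over 80 miRNAs. Sequences are reverse complements of the deposited probes, and Python 3.11.15 with pandas 2.3.3 and matplotlib 3.10.9 read files and drew plots.

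The members, the lists, the bright-array limit of 50 detected miRNAs and the tests were chosen with earlier results of these data known. The miRNAs named are the members, the 3 most like each in pattern, and the members of the lists, with miR-99b and miR-34a added after their values were seen.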

Additional observations from a re-analysis of the deposited data

Results flagged for a closer look

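The difference between Sca1+ and Sca1- differed in sign between lines for every member in the scanner-file assignment, in a way that was not tested. On the scaled log2 scale, miR-29a stood at 1.03 in CMT-U27, -1.29 in CMT-U309 and -2.90 in P114. miR-29b stood at 2.14 in CMT-U27, -1.56 in CMT-U309 and -2.25 in P114. miR-29c stood at 0.17 in CMT-U27, -0.59 in CMT-U309 and -2.16 in P114. Each line has 1 array per fraction, so no spread within a line can be set against these values. The median of all miRNAs tested moved in the same direction as the members when a line's pair was broken. It was -2.12 without D1 and -2.16 without D2 (CMT-U27), and 0.0096 without D3 and -0.19 without B3 (P114). How many miRNAs differed in sign between lines was not counted, so the pattern is not shown to be particular to the family. miR-29b and miR-29c were not detected on the Sca1- array of CMT-U27, and no member was detected on the Sca1+ array of P114.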

How the results depend on the processing

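Within lines, 0 miRNAs were called under each alternative except the value table's assignment with normexp background, which called 3. miR-29a was at 0.070 by value table and at -0.24 by value table with normexp. For miR-29b, leaving out 1 array in turn gave -1.91 to 0.29, the highest without either P114 array (D3 or B3) and the lowest without either CMT-U27 array (D1 or D2). The same arrays gave the ends of the range for miR-29a (-2.10 to -0.13) and miR-29c (-1.38 to -0.21). The median of all miRNAs tested ran from -2.16 (without D2) to 0.0096 (without D3) in these fits. miR-29c turned to 0.59 with normexp, 0.25 with total gene signal, 0.16 with a floor at the detection limit, 0.54 by value table and 0.52 by value table with normexp. Under the same settings, in that order, the median of all miRNAs tested was 0.60, -1.41, 0.33, -0.56 and 0.56. With no replicate block for the line, the log2 differences were the same and the adjusted p of limma was 0.994 for the members; by value table with no replicate block they were 0.070 for miR-29a and 0.54 for miR-29c. Requiring detection on every array left 9 miRNAs and no member. Among lines, 1 miRNA was called with total gene signal, 14 with the value table's assignment and 66 with that and normexp, miR-29c among them (adjusted p = 7.68e-05).

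On the bright arrays the count of 4 became 11 (1 higher, 10 lower on B1) when scaling over all probes, 0 after quantile scaling (29 unadjusted), 54 with normexp (43 higher, 11 lower on B1), 2 with the mean of all probes, 0 with no filter (32 unadjusted), 8 with detection on every array (2 higher, 6 lower), 10 with the floor (3 higher, 7 lower) and 0 with D1 added. With normexp, miR-29a was at -0.75 (adjusted p = 0.0160) and miR-29b at -1.20 (adjusted p = 0.000558). miR-29a turned to 0.051 with D1 added. miR-29c turned to 0.30 with no scaling, 0.32 with normexp, 0.062 with the mean of all probes and 0.55 with D1 added. The difference in miR-29c over miR-29a was 1.16 with normexp and that in miR-29c over miR-29b 1.53. That in miR-29b over miR-29a was -0.36 with normexp, without overlap between fractions. These normexp ratios include an added offset of 50 intensity units, large beside the miR-29c signal on D1. Leaving out 1 array in turn, the difference in miR-29b over miR-29a ran between -0.31 (without D1) and 0.037 (without B1). The value-table assignment with normexp or with no replicate block, D1 added, and all alternatives for ratios were chosen after seeing the data. The cause of these changes was not tested.

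The sorted fractions have 1 array per line, and 2 of the Sca1+ arrays by scanner file and 1 of the Sca1- arrays were dim. No member had more than 1 of 20 spots well above background on D2 or D3, so depth of signal there limits every difference within lines that uses them.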
